A study of Mus musculus with 12 samples.

Results

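Interferon-stimulated genes, together with the interferon-inducible GTPases of the guanylate-binding protein (GBP) and immunity-related GTPase (IRG) families, were followed in mouse splenic CD4+ T cells that did or did not express a reporter of the transcription factor gene Eomes. The set was a list of 44 gene symbols matched to the 43626 genes of the deposited count matrix. Of these, 42 had a feature of their own and 41 passed the filter on low counts. Ifi44 did not pass it, with 55 reads over the 12 libraries. Gbp5 and Gbp6 had no feature of their own, and most or part of their exon bases lie in features that span neighbouring genes. For the comparison of the interferon types, the list held 9 targets used as markers of type I interferon (the Ifit, Oas, Oasl and Mx genes) and 11 targets used as markers of interferon-gamma (the Gbp and Irg genes and Irf1), of which 9 could be measured.

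The donor cells were naive (CD45RBhi CD25-) CD4+ T cells of Eomes flox/GFP mice, which carry 1 conditional and 1 GFP reporter allele of Eomes. Donors without cre are called Het, and donors with Lck-cre, which is active in the T lineage, are called KO. The GFP allele is thus shared by all 4 groups. The cells were injected into adult male Rag2-/- mice, which lack their own T and B cells but keep myeloid and NK cells. After 3 weeks CD4+ cells were sorted by GFP from the spleens of 6 recipients, 3 per donor genotype, so that each recipient gave 1 GFP+ and 1 GFP- library. The resulting groups (Het GFP-, Het GFP+, KO GFP- and KO GFP+) held 3 libraries each.

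Type I interferons bind the receptor of IFNAR1 and IFNAR2 and activate a complex that contains STAT2 and IRF9 and binds the interferon-stimulated response element (ISRE) in front of antiviral genes. Interferon-gamma, a main product of Th1 and EOMES-expressing T cells, binds IFNGR1 and IFNGR2 and acts through the gamma-activated site (GAS). One early GAS target is Irf1, whose protein in turn acts on ISRE-like elements of GBP, IRG and antigen-processing genes, so the sets of targets overlap.

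The DNA around the start sites of the members held the letters of both kinds of element. Promoter windows of 300 bases, from RefSeq on GRCm38.p6, were found for 34 of the 44 symbols. The windows run past the start site, and some matches lie after it, such as the ISRE letters of Ddx58, Eif2ak2 and Ifih1 and the GAS letters of Ifi35. The core of the ISRE, searched on both strands as GAAA, any 2 bases and GAAA again, occurred in 20 of these 34 (58.8%) and in 3.99% of all 27025 genes with a window. The letters TTCNNNGAA, which read the same on both strands and stand for the GAS, occurred in 13 of 34 (38.2%) and in 9.55% of all genes. Among the type I targets 4 of 7 windows held the ISRE letters and 2 of 7 the GAS letters, against 7 of 8 and 5 of 8 among the interferon-gamma targets. The ISRE letters were therefore not restricted to the type I group. A match shows only that the letters are present, and the symbols without a window were Oas2, Mx1, Gbp4, Gbp6, Iigp1, Dhx58, Zbp1, Usp18, Parp14 and Rtp4.

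The 6 stretches show how the letters were arranged, each with the 120 bases before the annotated start site and the matches in capitals. Oas1a, Ifit1, Gbp7, Irf1, Igtp and Isg15 were chosen after the matches were seen, as members of each type with and without a call. In Oas1a, at chr5:120907526-120907645 (minus strand), a run of overlapping ISRE letters lies next to the start site and GAS letters lie upstream. In Isg15, at chr4:156200819-156200938 (minus strand), 3 ISRE matches overlap. Ifit1, at chr19:34640769-34640888 (plus strand), holds 2 separate ISRE matches.
Oas1a: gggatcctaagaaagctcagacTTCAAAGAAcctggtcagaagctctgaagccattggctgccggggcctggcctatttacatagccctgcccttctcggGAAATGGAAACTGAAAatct
Isg15: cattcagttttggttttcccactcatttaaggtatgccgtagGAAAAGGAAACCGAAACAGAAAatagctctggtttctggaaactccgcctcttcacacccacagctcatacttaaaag
Ifit1: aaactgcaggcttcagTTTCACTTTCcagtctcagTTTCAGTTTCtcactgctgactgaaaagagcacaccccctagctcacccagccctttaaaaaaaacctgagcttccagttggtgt
Irf1, at chr11:53769894-53770013 (plus strand), holds GAS letters beginning 90 bases before the first of its start sites and no ISRE letters. Igtp, at chr11:58199436-58199555 (plus strand), and Gbp7, at chr3:142530216-142530335 (plus strand), hold both kinds.
Irf1: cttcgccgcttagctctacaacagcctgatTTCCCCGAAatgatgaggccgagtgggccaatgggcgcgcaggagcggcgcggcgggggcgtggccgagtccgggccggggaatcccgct
Igtp: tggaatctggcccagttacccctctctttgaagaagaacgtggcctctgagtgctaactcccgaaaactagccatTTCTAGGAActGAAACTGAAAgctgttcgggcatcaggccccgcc
Gbp7: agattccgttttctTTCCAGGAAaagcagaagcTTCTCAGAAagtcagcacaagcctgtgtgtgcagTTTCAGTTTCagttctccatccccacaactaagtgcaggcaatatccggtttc

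Several properties of the libraries bear on these genes. The reporter gene itself, Eomes, ran from 89.8 to 123 CPM (counts scaled to library size by TMM) in Het GFP+, from 31.6 to 46.6 in KO GFP+ and from 1.95 to 9.19 in the GFP- libraries, and the count covers the whole gene, so it does not check the deletion. GFP+ libraries came from 18000 to 117000 cells and held 2116894 to 8608902 counts, against 645000 to 2100000 cells and 11492908 to 18167236 counts in GFP-. In the GFP+ libraries of recipients Het 2 and KO 2, the 4 dominant features took 58.3% and 54.3% of the counts, against 16.3% to 30.9% elsewhere. The CD4+ T cell identity was checked on Cd3d, Cd3e, Cd3g, Cd4 and Trac, whose summed level was 996 to 1815 CPM, while the CD8 T cell markers summed to at most 4.57 and the B cell markers to at most 20.7 CPM. Summed CD4 T markers were lower in the GFP+ library of 6 of 6 recipients. Cd4 was the largest part of this sum, and not every marker followed it. Cd3e measured 222, 188 and 127 CPM in the Het GFP- libraries and 240.2, 214 and 199 in Het GFP+. In KO it measured 217, 197 and 174 CPM in GFP- and 197, 198 and 195 in GFP+. Summed myeloid markers (18 genes, none without a count) ran from 149 to 1945 CPM in GFP- and from 435 to 4204 in GFP+, higher in 6 of 6 recipients, and summed erythroid markers were also higher in 6 of 6. Transcripts typical of cells other than CD4+ T cells were thus detected in every library, and their part in the members' values was not tested.

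Per kilobase of exon, the members covered a wide range of levels. Averaged over the 12 libraries, Irf1 (104 CPM per kb), Psmb8 (103) and Igtp (100.2) were the highest. The measured interferon-gamma targets lay between 18.7 (Irgm1) and 104 CPM per kb. The type I targets lay lower, between 0.654 (Oasl1) and 12.0 (Oas3), so that every interferon-gamma target was above every type I target on this scale. Oasl1, Ifit1 and Ifit3 rested on few reads, down to 1, 1 and 3 in the GFP+ library of recipient KO 2.

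The GFP+ and GFP- cells were compared first as an average over both genotypes, a contrast that uses all 6 recipients. Of the 41 members tested, 18 rose in GFP+ cells and none fell, by edgeR's quasi-likelihood test at a Benjamini-Hochberg FDR of 0.05 over 13238 genes. In the same contrast 18.1% of all genes were called, 9.91% as higher and 8.18% as lower, against 43.9% of the members. The median log2 fold change of the members was 0.33, and that of all genes -0.02. By role, the call was met by 5 of 9 type I targets, 1 of 9 interferon-gamma targets, 1 of 3 other interferon transcription factors, 3 of 5 nucleic acid sensors, 5 of 11 other antiviral effectors and 3 of 4 genes of antigen processing or chemokines. With the recipient as a block, which pairs the sorts of 1 animal, all 18 calls were kept and 22 were made, 21 of them higher (41.1% of all genes were called, 20.3% as higher and 20.7% as lower). In bulk RNA, a higher level can mean more RNA per cell or more cells of a type, and these cannot be told apart.

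The number of calls depended on single libraries. It fell to 3 without Het GFP- replicate 2 (5.36% of all genes called) or without KO GFP- replicate 1 (5.81%), and to 4 without KO GFP+ replicate 3 (5.33%). It fell to 9 without KO GFP- replicate 3 (8.02%), to 10 without Het GFP+ replicate 2 (9.19%) and to 11 without Het GFP+ replicate 1 (11.6%), so the calls over all genes fell in the same fits from 18.1%. With an offset for GC content and exon length, Parp14, Psmb9, Samhd1 and Tap1 lost their call, and with the offset and the block Psmb9, Samhd1 and Tap1 did. With no filter on low counts the same 4 and Eif2ak2 lost it. Without both recipients numbered 2, whose GFP+ libraries were the shallowest, an alternative added after the data were seen, no member was called by edgeR (17 at an unadjusted p under 0.05, and 0.171% of all genes were called as higher). With the recipient as a block the same 4 pairs gave 14 calls, all higher (12.3% of all genes). Oas2 and Irf1 kept their call in each of the 12 fits that left out 1 library.

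Among the type I targets, Oas2, Oasl1, Oasl2 and Oas1a had the highest fitted values. The OAS enzymes make the second messenger that switches on RNase L when double-stranded RNA is present. Oas2 (ENSMUSG00000032690.12, chr5:120730333-120749853 on mm10, minus strand) measured 3.77, 4.36 and 6.30 CPM in the Het GFP- libraries, 13.9, 35.1 and 23.8 in Het GFP+, 0.815, 3.10 and 1.14 in KO GFP- and 3.51, 27.8 and 7.89 in KO GFP+. Each GFP+ library exceeded the GFP- library of its own recipient, but the KO GFP+ range overlapped that of Het GFP-. The averaged contrast was 2.51 (SE 0.48, FDR 0.00916) on the log2 scale, a 5.71-fold difference, and the FDR over the leave-one-out fits ran from 0.00162 to 0.0301. The GFP+ libraries of recipients Het 2 and KO 2 had the highest Oas2 level of their groups.

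Oasl2 belongs to the oligoadenylate synthetase-like genes. Within each group it ranked the libraries as Oas2 did, at 5.28, 6.88 and 8.97 CPM in the Het GFP- libraries, 15.1, 44.5 and 30.5 in Het GFP+, 1.87, 6.87 and 2.14 in KO GFP- and 4.89, 32.1 and 10.4 in KO GFP+. Its averaged contrast was 1.99 (SE 0.47, FDR 0.0193), and the call was lost without Het GFP- replicate 2 or KO GFP- replicate 1 (leave-one-out FDR 0.00380 to 0.0517). Oasl1, of the same family, measured 0.377, 0.340 and 2.38 CPM in the Het GFP- libraries, 1.47, 3.12 and 7.59 in Het GFP+, 0.163, 0.365 and 0.199 in KO GFP- and 1.17, 0.714 and 2.59 in KO GFP+, with a contrast of 2.34 (SE 0.60, FDR 0.0257). Its KO values rest on 1 to 22 reads per library, and the call was lost without Het GFP- replicate 2, Het GFP+ replicate 3, KO GFP- replicate 1 or 3, or KO GFP+ replicate 3 (FDR 0.00658 to 0.0916).

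Oas1a, one of the synthetases, measured 4.14, 5.31 and 5.56 CPM in the Het GFP- libraries, 14, 16.0 and 13.1 in Het GFP+, 11.7, 3.89 and 11.8 in KO GFP- and 14.9, 5.0 and 13.7 in KO GFP+. The Het sorts did not overlap, the KO sorts did, and the libraries of recipient KO 2 were low in both sorts. The averaged contrast was 0.95 (SE 0.29, FDR 0.0430), and it was kept only without Het GFP+ replicate 3, KO GFP- replicate 2 or KO GFP+ replicate 2 among the leave-one-out fits (FDR 0.0327 to 0.115). Reads of Oas1a and its near-identical neighbours, such as Oas1g, may not be separated by the counting.

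Mx1, a dynamin-like GTPase with antiviral activity, measured 31.0, 18 and 26.8 CPM in the Het GFP- libraries, 44.1, 31.6 and 31.0 in Het GFP+, 39.7, 35.4 and 52.4 in KO GFP- and 66.7, 61.4 and 74.1 in KO GFP+. The averaged contrast was 0.58 (SE 0.16, FDR 0.0314), and it was lost without Het GFP- replicate 2, Het GFP+ replicate 1, KO GFP- replicate 1 or KO GFP+ replicate 3 (FDR 0.0222 to 0.0889).

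The other 4 type I targets were not called. Oas3, which was the highest of the class per length, measured 54.5, 78.4 and 41.7 CPM in the Het GFP- libraries, 47.5, 110.4 and 51.3 in Het GFP+, 58.2, 69.1 and 63.1 in KO GFP- and 56.8, 62.1 and 58.2 in KO GFP+, with overlapping sorts in both genotypes and a contrast of 0.07 (SE 0.21, FDR 0.849). The tetratricopeptide proteins IFIT1, IFIT2 and IFIT3 bind viral RNA, and their genes are among the most used type I markers. The contrast was -0.14 (SE 0.31, FDR 0.765) for Ifit1, 0.06 (SE 0.23, FDR 0.883) for Ifit2 and 0.51 (SE 0.34, FDR 0.293) for Ifit3. Ifit2, with 26 or more reads in each library, measured 27.4, 24.1 and 39.6 CPM in the Het GFP- libraries, 31.5, 32.4 and 45.7 in Het GFP+, 46.9, 29.7 and 46.1 in KO GFP- and 55.3, 18.6 and 31.8 in KO GFP+. By the threshold, Oas1a, Oas2, Oasl1, Oasl2 and Mx1 were thus called higher in GFP+, and the Ifit genes and Oas3 were not called. No test compared the called with the uncalled genes. The fitted value of Ifit3 was close to that of Mx1, with a larger SE. Of the uncalled genes the windows of Ifit1, Ifit3 and Oas3 held ISRE letters and that of Ifit2 did not. Of the called genes Oas1a held them, Oasl1 and Oasl2 did not, and Oas2 and Mx1 had no window. Ifit3 reads may be shared with the near-identical Ifit3b.

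**Figure D1:**
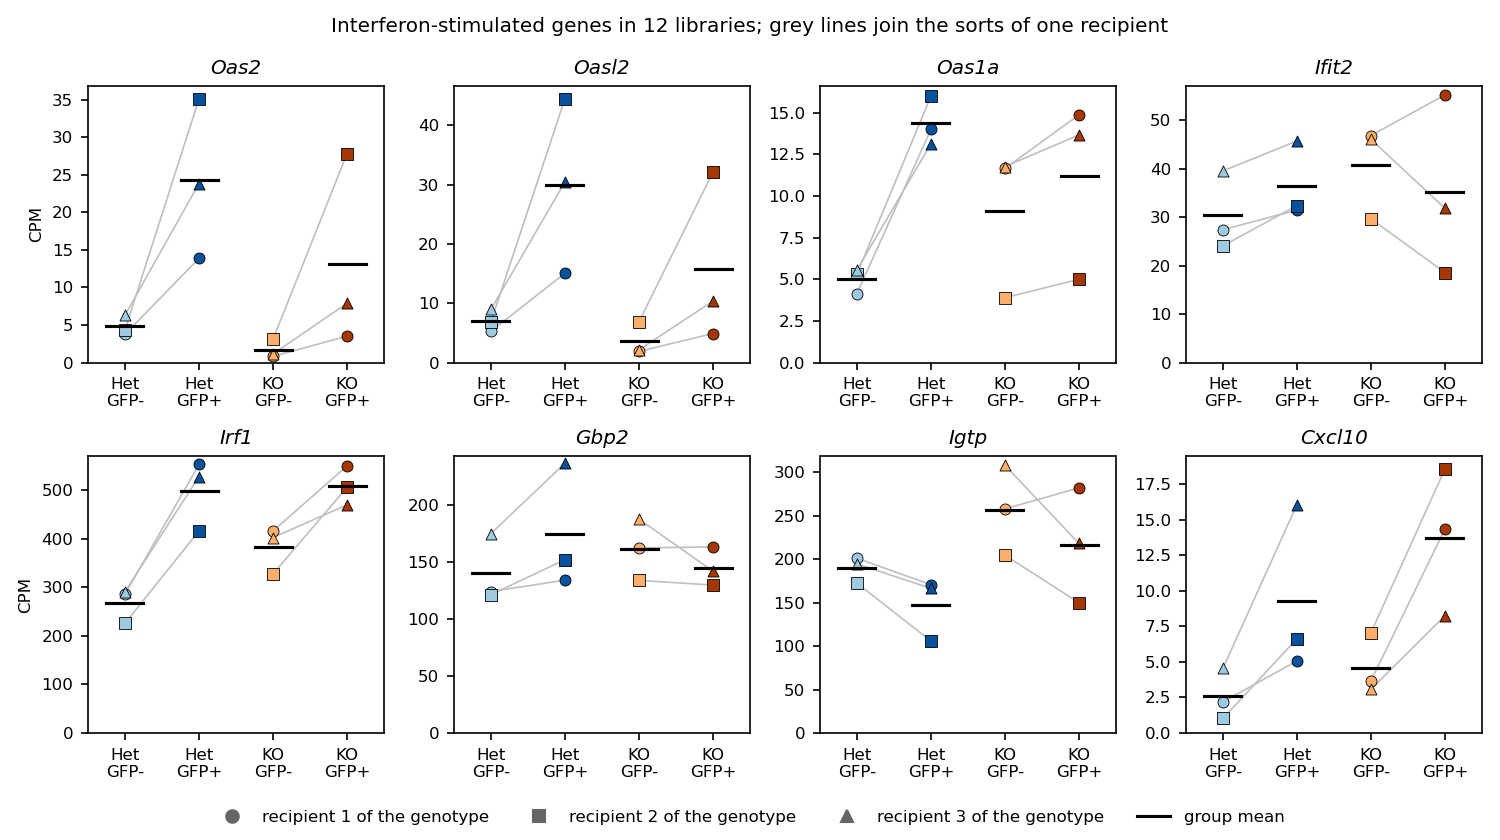
TMM-scaled read counts (CPM, linear axis from 0) of 8 members in the 12 libraries, by donor genotype and GFP sort. Symbols mark recipients, grey lines join the GFP- and GFP+ library of 1 recipient and black bars are group means (n = 3). Oas2, Oasl2, Irf1 and Cxcl10 were higher in the GFP+ library of 6 of 6 recipients, while Ifit2, Gbp2 and Igtp were not.

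Of the interferon-gamma targets 1 of 9 was called without the block, Irf1, a transcription factor gene. With the block 5 of 9 were called, Gbp3, Gbp4, Iigp1 and Irf1 as higher and Igtp as lower, against 5 of 9 type I targets, all higher. In that fit 41.1% of all genes were called, 20.3% as higher and 20.7% as lower. Igtp was not called when the offset for GC content and exon length was added to the block. Irf1 (ENSMUSG00000018899.12, chr11:53770014-53778374 on mm10, plus strand) measured 286, 226 and 291 CPM in the Het GFP- libraries, 553, 416 and 528 in Het GFP+, 416, 328 and 403 in KO GFP- and 550.3, 506 and 470.0 in KO GFP+. All 6 GFP+ libraries lay above all 6 GFP- libraries, which held for Irf1 alone among the members, and for 2.49% of all genes (3.32% in the other direction). The margin for Irf1 was narrow, with 416.4 CPM in Het GFP+ replicate 2 and 416.3 in KO GFP- replicate 1. The averaged contrast was 0.66 (SE 0.13, FDR 0.00876), a 1.58-fold difference.

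The GTPase genes of the class, which encode proteins that take part in the defence against intracellular pathogens, were uncalled without the block. Igtp (Irgm3) measured 201, 173 and 195 CPM in the Het GFP- libraries, 171, 106 and 166 in Het GFP+, 258, 205 and 308 in KO GFP- and 282, 149.9 and 218 in KO GFP+. In Het it lay lower in GFP+ without overlap, and the averaged contrast was -0.30 (SE 0.18, FDR 0.236); with the recipient as a block the value was -0.33 (SE 0.12, FDR 0.0421), the only member called lower with the block. Igtp shares 162 exon bases on the same strand with Irgm2, so a small part of their reads cannot be assigned. Iigp1 measured 51.1, 20.6 and 56.9 CPM in the Het GFP- libraries, 75.7, 23.8 and 90.1 in Het GFP+, 51.9, 74.5 and 63.2 in KO GFP- and 79.8, 86.4 and 96.4 in KO GFP+, higher in GFP+ in 6 of 6 recipients. Recipient differences were large for Iigp1, with the contrast at 0.53 (SE 0.30, FDR 0.212) without and 0.50 (SE 0.10, FDR 0.00319) with the block.

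The GBP genes encode related GTPases that coat the vacuoles of intracellular pathogens, and the group means of these genes were at 17.0 CPM per kb or above. The averaged contrast was 0.08 (SE 0.16, FDR 0.739) for Gbp2, 0.45 (SE 0.26, FDR 0.233) for Gbp3, 0.34 (SE 0.20, FDR 0.235) for Gbp4 and 0.12 (SE 0.13, FDR 0.517) for Gbp7. With the block Gbp3 (0.45, SE 0.10, FDR 0.00526) and Gbp4 (0.31, SE 0.10, FDR 0.0313) were called. Gbp2 measured 124, 122 and 175 CPM in the Het GFP- libraries, 134, 152 and 237 in Het GFP+, 163, 134 and 188 in KO GFP- and 163, 129.9 and 142 in KO GFP+. Its GFP+ and GFP- ranges overlapped in both genotypes. Irgm1 (-0.02, SE 0.14, FDR 0.946) and Irgm2 (-0.18, SE 0.17, FDR 0.447) were not called with or without the block. The features that hold the exons of the unmatched genes differed in outcome: the one that contains 45.5% of the exon bases of Gbp5 gave 0.75 (FDR 0.0338) and the one that contains 72.4% of those of Gbp6 gave 0.34 (FDR 0.263), values that belong to the merged loci and not to either gene.

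The type I targets had a median log2 fold change of 0.58 and the interferon-gamma targets one of 0.12 in the averaged contrast. Leaving out 1 library at a time gave 0.50 to 0.79 and 0.06 to 0.20. No test compared the classes. As a mean of log2(CPM + 0.5), the type I targets were above their own GFP- library in 6 of 6 recipients, with 3.11 ± 0.30 in GFP- and 4.12 ± 0.39 in GFP+ for Het, and 2.94 ± 0.04 and 3.51 ± 0.14 for KO (SD, n = 3). The interferon-gamma targets were at 6.90 ± 0.25 in GFP- and 7.19 ± 0.37 in GFP+ for Het, and at 7.35 ± 0.19 and 7.40 ± 0.22 for KO, and were above their own GFP- library in 3 of 3 Het and 1 of 3 KO recipients.

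Among the other interferon transcription factors, Stat2, which gives the type I complex its transactivation domain, was called. It measured 63.1, 47.7 and 46.5 CPM in the Het GFP- libraries, 93.5, 93.3 and 76.3 in Het GFP+, 45.6, 50.6 and 48.0 in KO GFP- and 45.8, 132 and 95.3 in KO GFP+. The KO GFP+ library of recipient 1 was as low as the GFP- libraries, so the KO sorts overlapped, and the Het sorts did not. The contrast was 0.82 (SE 0.21, FDR 0.0233), lost without Het GFP- replicate 2, Het GFP+ replicate 2, KO GFP- replicate 1 or 3, or KO GFP+ replicate 3 (FDR 0.000913 to 0.0638). Irf9, the DNA-binding partner of STAT2, measured 86.4, 85.0 and 91.0 CPM in the Het GFP- libraries, 98.0, 98.4 and 106 in Het GFP+, 98.1, 81.5 and 106 in KO GFP- and 116, 112 and 97.9 in KO GFP+, with a contrast of 0.20 (SE 0.10, FDR 0.162). Irf7, the factor that amplifies type I interferon production, measured 51.0, 70.0 and 55.3 CPM in the Het GFP- libraries, 64.4, 59.7 and 52.5 in Het GFP+, 72.5, 46.0 and 61.2 in KO GFP- and 69.5, 45.0 and 52.3 in KO GFP+ and was close to 0 on the log2 scale (-0.04, SE 0.15, FDR 0.855). Irf9 shares 123 exon bases with Rnf31 and Irf7 shares 45 with Phrf1.

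Of the nucleic acid sensors, Dhx58, Zbp1 and Eif2ak2 rose. Dhx58 (LGP2) modulates RIG-I-like sensing and measured 11.5, 9.53 and 13.4 CPM in the Het GFP- libraries, 18.9, 23.8 and 19.0 in Het GFP+, 13.8, 12.3 and 16.2 in KO GFP- and 15.9, 22.1 and 20.7 in KO GFP+, with a contrast of 0.64 (SE 0.15, FDR 0.0181). Zbp1, which senses Z-form nucleic acids and triggers necroptosis, measured 64.1, 48.5 and 48.9 CPM in the Het GFP- libraries, 117, 71.8 and 81.6 in Het GFP+, 60.6, 58.9 and 69.9 in KO GFP- and 67.8, 90.7 and 105 in KO GFP+, with a contrast of 0.61 (SE 0.15, FDR 0.0230). Het GFP+ libraries lay above Het GFP- libraries for both, and the KO ranges overlapped. Eif2ak2 (PKR), the kinase that halts translation on double-stranded RNA, measured 42.4, 40.7 and 43.1 CPM in the Het GFP- libraries, 52.4, 48.8 and 68.9 in Het GFP+, 45.9, 44.4 and 52.9 in KO GFP- and 61.8, 57.8 and 60.8 in KO GFP+, with a contrast of 0.39 (SE 0.11, FDR 0.0327). Dhx58 lost its call without Het GFP- replicate 2 or KO GFP+ replicate 3 (FDR 0.00597 to 0.0576). Zbp1 (0.00550 to 0.0731) and Eif2ak2 (0.0212 to 0.0877) lost theirs without either of these or without KO GFP- replicate 1. Ddx58 (RIG-I), the highest sensor per length after Zbp1, measured 98.1, 95.2 and 79.6 CPM in the Het GFP- libraries, 113, 107 and 82.7 in Het GFP+, 93.0, 98.1 and 97.0 in KO GFP- and 93.6, 62.1 and 72.2 in KO GFP+, with a contrast of -0.09 (SE 0.12, FDR 0.623). Ifih1 (MDA5), at 0.32 (SE 0.15, FDR 0.157), was not called either.

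Of the 11 other antiviral effectors tested, 5 rose. Isg15, a ubiquitin-like modifier, measured 2.94, 4.56 and 2.27 CPM in the Het GFP- libraries, 10.4, 12.5 and 4.09 in Het GFP+, 3.02, 4.32 and 4.92 in KO GFP- and 4.89, 12.1 and 6.95 in KO GFP+. Its GFP+ and GFP- ranges overlapped in both genotypes, and each recipient was higher in GFP+. The contrast was 1.14 (SE 0.33, FDR 0.0356). Usp18, the protease that removes ISG15 and blocks IFNAR2 signalling, measured 1.58, 2.52 and 3.01 CPM in the Het GFP- libraries, 4.27, 5.85 and 4.77 in Het GFP+, 1.47, 2.74 and 2.09 in KO GFP- and 2.66, 9.28 and 4.95 in KO GFP+, with a contrast of 1.16 (SE 0.32, FDR 0.0322). Rsad2 (viperin), which makes a chain-terminating nucleotide, measured 2.11, 3.27 and 4.65 CPM in the Het GFP- libraries, 5.6, 12.5 and 12.6 in Het GFP+, 2.53, 4.68 and 3.03 in KO GFP- and 2.98, 9.28 and 4.83 in KO GFP+, with a contrast of 1.09 (SE 0.34, FDR 0.0440). These 3 rested on 13 to 129 reads per library. Isg15 kept its call only without Het GFP+ replicate 3, KO GFP- replicate 2 or KO GFP+ replicate 1 (FDR 0.0147 to 0.0850). Rsad2 kept it without Het GFP- replicate 3, Het GFP+ replicate 1, KO GFP- replicate 2 or KO GFP+ replicate 1 (FDR 0.0142 to 0.0985), and Usp18 without any of these 4 or Het GFP+ replicate 3 (FDR 0.00691 to 0.0780).

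Parp14 and Samhd1, the effectors with the most reads, differed by less. Parp14, a mono-ADP-ribosyltransferase, measured 284, 234 and 195 CPM in the Het GFP- libraries, 451, 322 and 287 in Het GFP+, 230.0, 264 and 264 in KO GFP- and 266, 348 and 344 in KO GFP+, with a contrast of 0.46 (SE 0.15, FDR 0.0490). Samhd1, which hydrolyses deoxynucleotides, measured 389, 367 and 314 CPM in the Het GFP- libraries, 487, 510.1 and 450.0 in Het GFP+, 327, 311 and 311 in KO GFP- and 359, 392 and 365 in KO GFP+, with a contrast of 0.33 (SE 0.10, FDR 0.0416). For Samhd1 the GFP+ and GFP- libraries did not overlap within either genotype, yet Het GFP- overlapped KO GFP+. Both kept their call in 3 of 12 leave-one-out fits, those without Het GFP- replicate 1, Het GFP+ replicate 3 or KO GFP+ replicate 1 (FDR 0.0195 to 0.126 and 0.0255 to 0.101). The 6 other effectors tested (Isg20, Bst2, Ifi35, Xaf1, Trim30a and Rtp4) were not called and lay between -0.09 (Bst2) and 0.30 (Xaf1) on the log2 scale.

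The antigen-processing and chemokine genes held 3 calls. Cxcl10, the interferon-induced ligand of CXCR3, measured 2.19, 1.02 and 4.54 CPM in the Het GFP- libraries, 5.07, 6.63 and 16.1 in Het GFP+, 3.67, 7.05 and 3.08 in KO GFP- and 14.3, 18.6 and 8.25 in KO GFP+. Each recipient was higher in GFP+, and the KO sorts did not overlap. Its contrast was 1.69 (SE 0.41, FDR 0.0209), lost only without KO GFP- replicate 1 (FDR 0.0109 to 0.0538). Tap1, a subunit of the peptide transporter of the endoplasmic reticulum, measured 356, 287 and 382 CPM in the Het GFP- libraries, 620.4, 459 and 551 in Het GFP+, 469, 396 and 482 in KO GFP- and 501, 568 and 575 in KO GFP+, with a contrast of 0.48 (SE 0.12, FDR 0.0258), lost without Het GFP- replicate 2, Het GFP+ replicate 1, KO GFP- replicate 1 or KO GFP+ replicate 3 (FDR 0.0120 to 0.0756). Psmb9 (LMP2), an immunoproteasome subunit, measured 88.6, 91.0 and 90.3 CPM in the Het GFP- libraries, 127, 139 and 117 in Het GFP+, 131, 115 and 142 in KO GFP- and 146, 139.9 and 137 in KO GFP+, with a contrast of 0.31 (SE 0.09, FDR 0.0400), kept only without Het GFP+ replicate 3 or KO GFP+ replicate 1 (FDR 0.0331 to 0.0972). Psmb8 (LMP7), its partner subunit, measured 234, 284 and 296 CPM in the Het GFP- libraries, 264, 236 and 295 in Het GFP+, 354, 284 and 367 in KO GFP- and 334, 207 and 223 in KO GFP+, with overlapping sorts and a contrast of -0.21 (SE 0.14, FDR 0.298). Tap1 and Psmb9 share a promoter region and 212 exon bases on opposite strands, and whether the counting used strand was not stated in the labels.

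**Figure D2:**
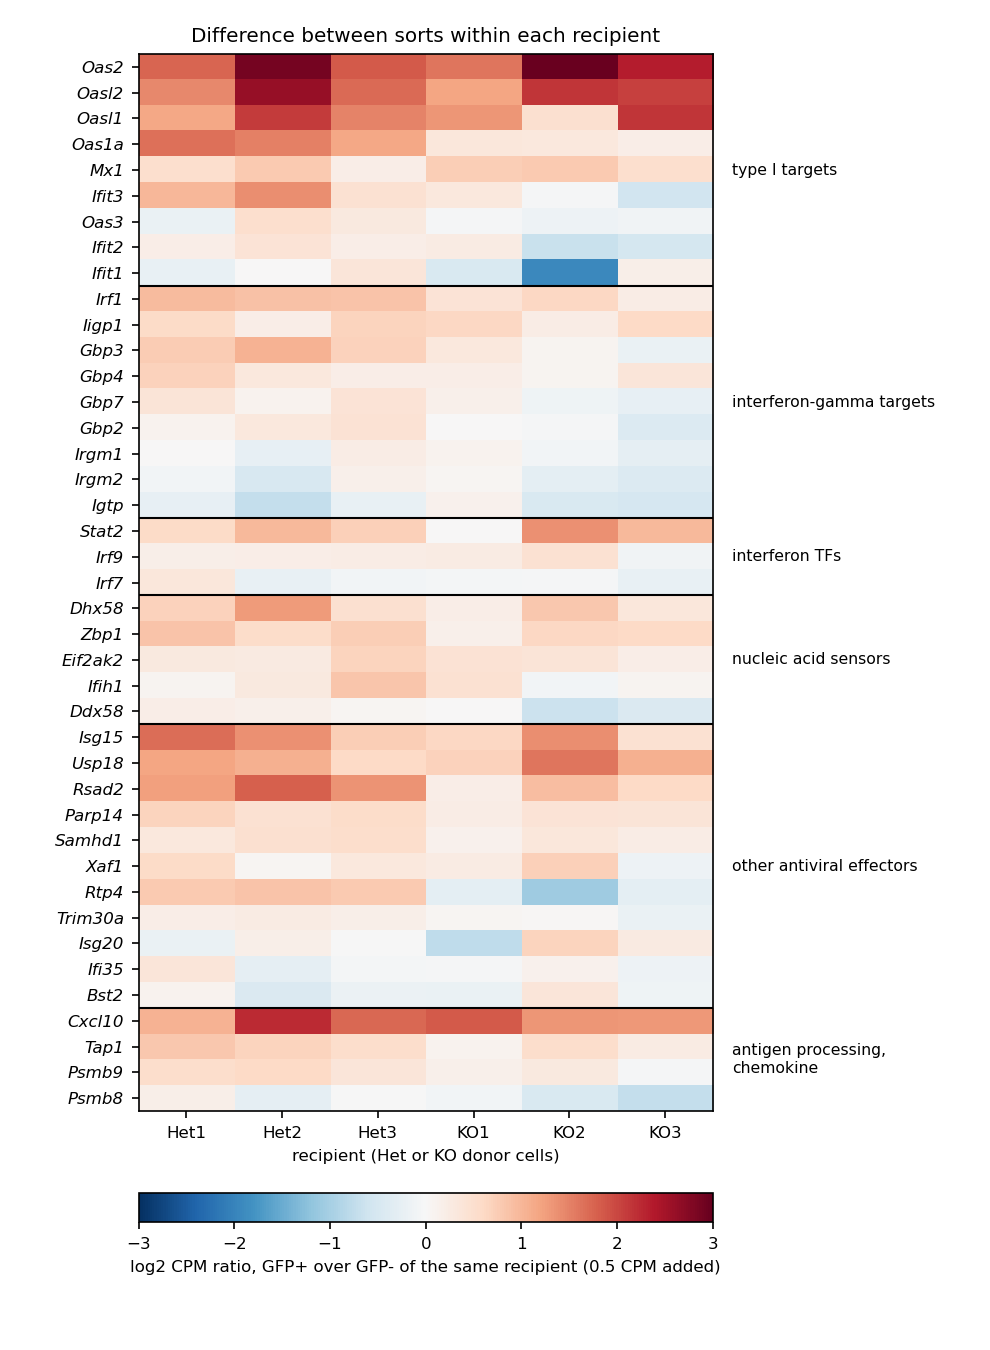
Log2 ratio of CPM between the GFP+ and the GFP- library of each recipient (0.5 CPM added; red, higher in GFP+), for the 41 members tested, ordered by role and by their mean over recipients. Oas2, Oasl2, Oasl1 and Cxcl10 were higher in GFP+ in each of the 6 recipients, and Rtp4 was higher in the 3 Het and lower in the 3 KO recipients.

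Within recipients, 19 of the 41 members were higher in the GFP+ library of 6 of 6 animals, and 0 were lower in 6 of 6, against 17.7% and 19.9% of all genes. The 19 were the 18 called members other than Psmb9, with Gbp4 and Iigp1 added. In Het recipients 31 of 41 members were higher in 3 of 3 animals (28.9% of all genes), and in KO recipients 19 of 41 (24.6% of all genes). Oas2 differed by 1.61 (KO 1) to 2.98 (KO 2) on the log2 scale, and Cxcl10 by 1.05 (Het 1) to 2.23 (Het 2). For Stat2 recipient KO 1 contributed 0.00 and recipient KO 2 1.38.

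In Het cells alone, the comparison that the study's design text names for the signature of Eomes-expressing cells, 1 of 41 members rose by edgeR without the block, Irf1 at 0.90 (SE 0.18, FDR 0.0192). The share of all genes called was 3.45%, with 1.82% higher and 1.63% lower. An unadjusted p under 0.05 was reached by 19 members and by 23.2% of all genes. The Irf1 call was lost without Het GFP- replicate 2 (log2 0.81, FDR 0.110) or Het GFP+ replicate 1 (log2 0.81, FDR 0.0629). Once the recipient entered the fit, the calls numbered 22, all higher (12.8% of all genes, with 9.41% lower), and DESeq2 called 13, all higher (2.98% of all genes). In the blocked fit Oas2 stood at 2.25 (SE 0.27, FDR 0.000402), Oasl2 at 1.99 (SE 0.25, FDR 0.00053), Oas1a at 1.52 (SE 0.20, FDR 0.000689), Cxcl10 at 1.82 (SE 0.30, FDR 0.00200) and Ifit3 at 1.01 (SE 0.32, FDR 0.0420). By class, 6 of 9 type I and 3 of 9 interferon-gamma targets (Gbp3, Iigp1 and Irf1) were called there. Without KO GFP+ replicate 1, a library outside the comparison, 9 members were called without the block, all higher (3.76% of all genes), and without KO GFP+ replicate 2 the count was 4 (2.32%).

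Het GFP+ and Het GFP- libraries did not overlap for 18 members that were higher and for Igtp, which was lower, against 12.7% and 14.6% of all genes. The median log2 fold change in Het was 0.96 for the type I targets and 0.32 for the interferon-gamma targets. All 9 type I targets and 7 of 9 interferon-gamma targets had a positive value, but not all of these passed the test.

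In KO cells alone, no member was called by edgeR without the block (0.128% of all genes were, 0.00755% as higher and 0.121% as lower). An unadjusted p under 0.05 was reached by 10 members, and DESeq2 called 2, Oas2 and Oasl2 (1.65% of all genes). With the block the calls numbered 9, all higher: Cxcl10, Iigp1, Mx1, Oas2, Oasl1, Oasl2, Stat2, Usp18 and Zbp1 (9.6% of all genes, with 8.14% lower). There Oas2 stood at 2.77 (SE 0.32, FDR 0.000827), Oasl1 at 2.81 (SE 0.61, FDR 0.0133), Cxcl10 at 1.6 (SE 0.28, FDR 0.00495) and Mx1 at 0.67 (SE 0.15, FDR 0.0150). Irf1, which had the call in Het, stood at 0.42 (SE 0.14, FDR 0.0608) with the block and 0.41 (SE 0.18, FDR 0.271) without. Without KO GFP+ replicate 1 the unblocked fit called 5 of 42 members, 4 of them higher, when 12.6% of all genes were called, a share close to that of the members. The median log2 fold change was 0.39 for the type I and -0.07 for the interferon-gamma targets. KO GFP+ and KO GFP- did not overlap for 10 members that were higher (9.52% of all genes) and for none that were lower (10.8%).

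**Figure D3:**
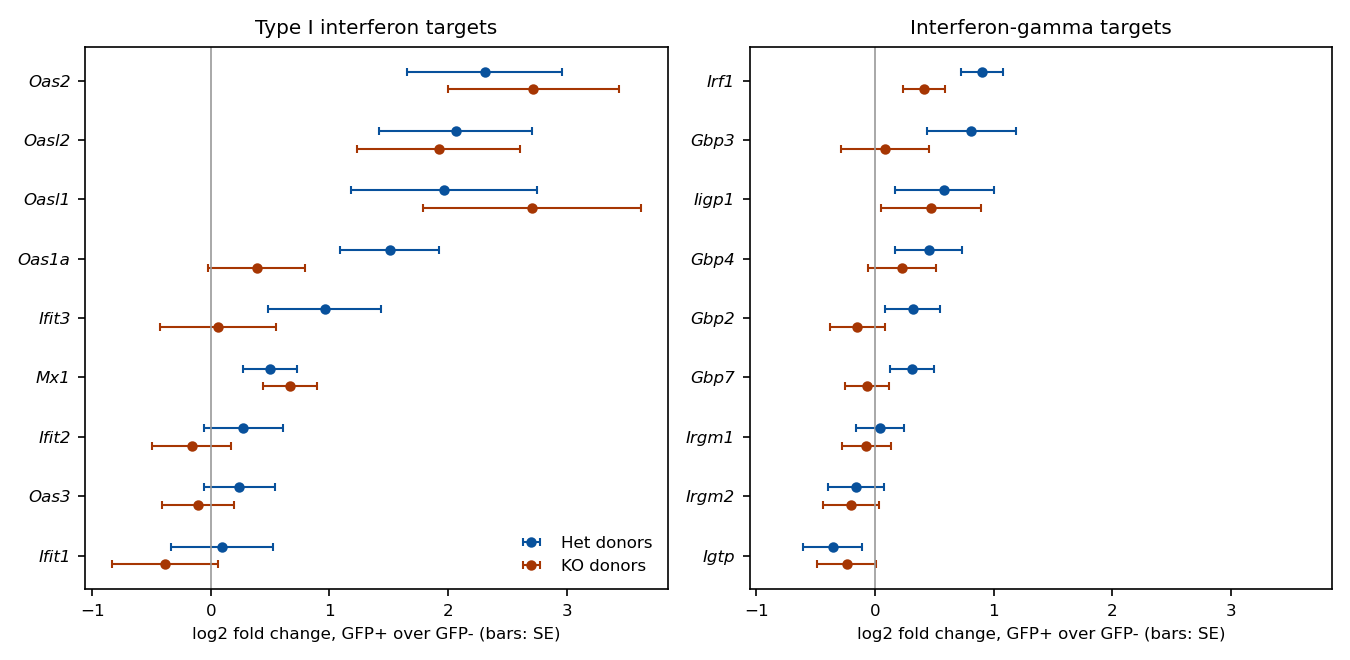
Log2 fold change of GFP+ over GFP- in Het (blue) and KO (brown) donor cells, fitted over all 12 libraries without the block, with bars of 1 SE, for the 9 type I and 9 interferon-gamma targets measured. Oas2, Oasl1 and Oasl2 lie between 1.92 and 2.72 in both genotypes, Oas1a lies at 1.51 in Het and 0.39 in KO, and of these values only Irf1 in Het passed the test.

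Whether the GFP difference itself differed between Het and KO was tested as an interaction. No member was called by edgeR with or without the block, against 0.00755% and 0.0755% of all genes (0.0453% positive and 0.0302% negative with the block), and DESeq2 also called 0. An unadjusted p under 0.05 was reached by 1 member without the block (Rtp4) and by 8 with it (1.99% and 4.77% of all genes). The median interaction was 0.24 over the members and 0.00 over all genes, and 33 of 41 members had a positive value (50.1% of all genes), which means a GFP+ minus GFP- difference that is higher, or less negative, in Het. The largest fitted values with the block were 1.28 (SE 0.30, FDR 0.257) for Rtp4, 1.22 (SE 0.29, FDR 0.280) for Oas1a and 1.11 (SE 0.47, FDR 0.975) for Ifit3. Oas2 stood at -0.52 (SE 0.41, FDR 1.00) and Oasl2 at -0.02 (SE 0.34, FDR 1.00).

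GFP+ cells of the 2 genotypes, the comparison that the design text names for Eomes-dependent genes, showed no called member by edgeR (0.106% of all genes were called, 0.0529% in each direction). An unadjusted p under 0.05 was reached by 5 members (6.22% of all genes). The type I targets had a median log2 difference of 0.85, Het minus KO, with 8 of 9 positive, and the interferon-gamma targets one of -0.10. The exception among the type I targets was Mx1, whose 3 Het GFP+ libraries lay below the 3 KO GFP+ libraries. Its difference was -0.92 (SE 0.23, FDR 0.277) by edgeR and -0.93 (FDR 0.0465) by DESeq2, the only member DESeq2 called. Over the alternatives without the block the FDR of Mx1 ran from 0.0465 to 0.670. In GFP- cells the Het values of Mx1 also lay below the KO values without overlap, at -0.75 (SE 0.23, FDR 0.858). Rtp4, a chaperone of membrane receptors, measured 6.33, 8.44 and 11.5 CPM in the Het GFP- libraries, 11.3, 15.6 and 20.0 in Het GFP+, 8.40, 7.97 and 10.6 in KO GFP- and 6.80, 3.57 and 8.60 in KO GFP+. Its Het GFP+ libraries lay above its KO GFP+ libraries, a difference of 1.21 (SE 0.33, FDR 0.324), and its KO GFP+ replicate 2 value rests on 5 reads. Het GFP+ did not overlap KO GFP+ for 2 members that were higher (Rtp4 and Samhd1) and 1 that was lower (Mx1), against 4.22% and 3.26% of all genes.

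GFP- cells gave no call for any member or any other gene in edgeR as fitted to all 12 libraries (0 to 26 genes but no member in the other edgeR fits), with 8 members at an unadjusted p under 0.05 (5.25% of all genes). DESeq2 called 1 member, Psmb9. All 9 interferon-gamma targets measured had a negative fitted difference, Het GFP- minus KO GFP-, with a median of -0.44, and Gbp7, Igtp and Irf1 did not overlap. Irf1 stood at -0.51 (SE 0.18, FDR 0.931) and Psmb9 at -0.52 (SE 0.13, FDR 0.488). Members without overlap numbered 1 higher in Het (Oas2) and 8 lower, against 5.37% and 5.89% of all genes. The Het and KO libraries also differed in sex-linked transcripts. Ddx3y ran from 0 to 9.76 CPM in the Het and from 15.2 to 67.9 CPM in the KO libraries. Xist ran from 940 to 1819 CPM in Het and from 55.7 to 1151 in KO. The recipients were male, and whether these transcripts came from donor or recipient cells was not tested. Ddx3y differed with genotype without overlap, so a difference that goes with it and one of genotype cannot be told apart. These transcripts were looked at after other values were seen, and what goes with them in the comparisons of the genotypes was not tested.

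The receptors, kinases and ligands of the pathway moved in both directions. Of 15 such genes tested outside the members, 5 passed the averaged GFP contrast, 2 higher and 3 lower (9.91% and 8.18% of all genes). Ifngr1, the ligand-binding chain for interferon-gamma, fell. It measured 479.5, 658 and 971 CPM in the Het GFP- libraries, 246, 229 and 358 in Het GFP+, 596, 507 and 511 in KO GFP- and 309, 101 and 163 in KO GFP+, with a contrast of -1.41 (SE 0.26, FDR 0.00709). Ifngr2, the signalling chain, measured 1.21, 1.70 and 3.97 CPM in the Het GFP- libraries, 4.13, 12.1 and 13 in Het GFP+, 1.30, 2.43 and 0.546 in KO GFP- and 1.70, 9.28 and 1.89 in KO GFP+; its contrast of 1.66 (SE 0.54, FDR 0.0516) was called only with the block (1.72, SE 0.28, FDR 0.000911). Ifnar2 rose, at 26.8, 18.9 and 20.5 CPM in the Het GFP- libraries, 45.5, 41.0 and 37.1 in Het GFP+, 27.8, 32.5 and 28.4 in KO GFP- and 36.6, 40.0 and 39.6 in KO GFP+ and a contrast of 0.64 (SE 0.12, FDR 0.00721), and was also called in Het alone (0.90, SE 0.17, FDR 0.0144). Ifnar1 was not called (0.19, SE 0.11, FDR 0.206).

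The interferon-gamma gene itself was lower in GFP+ in the averaged contrast. Ifng measured 151, 149.6 and 184 CPM in the Het GFP- libraries, 62.9, 53.5 and 117 in Het GFP+, 134, 160.1 and 157 in KO GFP- and 175, 71.4 and 88.4 in KO GFP+, with a contrast of -0.73 (SE 0.23, FDR 0.0490). In recipient KO 1 Ifng was higher in GFP+, and the FDR lay close to the threshold. Ptpn2, a phosphatase that acts on JAK kinases, fell (-0.65, SE 0.15, FDR 0.0170), and Irf8, an interferon-gamma-induced factor that myeloid cells express strongly, rose (1.24, SE 0.29, FDR 0.0192). Irf8 is also on the list of plasmacytoid dendritic cell markers.

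Myeloid markers moved with the same contrast. Of the 18, 7 were called higher in the averaged GFP contrast and 0 lower (9.91% and 8.18% of all genes), and 17 were called with the block (41.1% of all genes). Lyz2, a granulocyte and macrophage lysozyme, measured 31.7, 132 and 152 CPM in the Het GFP- libraries, 121, 700.2 and 536 in Het GFP+, 17.8, 108 and 7.60 in KO GFP- and 96.2, 358 and 97.1 in KO GFP+. The GFP+ libraries highest in Lyz2 (Het 2, Het 3 and KO 2) were also the 3 highest in Oas2. Among the KO GFP+ libraries Tap1 was lowest in replicate 1, where Lyz2 (96.2 CPM) was about that of replicate 3 (97.1 CPM). The summed myeloid markers of these libraries were lowest in replicate 3, at 435 CPM against 736 CPM in replicate 1. Among the Het GFP+ libraries Irf1 and Tap1 were highest in replicate 1, the one with the least Lyz2. Siglech, which defines plasmacytoid dendritic cells, was at or below 1.43 CPM in each GFP+ library, and at 20.8 CPM in Het GFP- replicate 3. The part of myeloid RNA in the members' values was not tested.

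**Figure D4:**
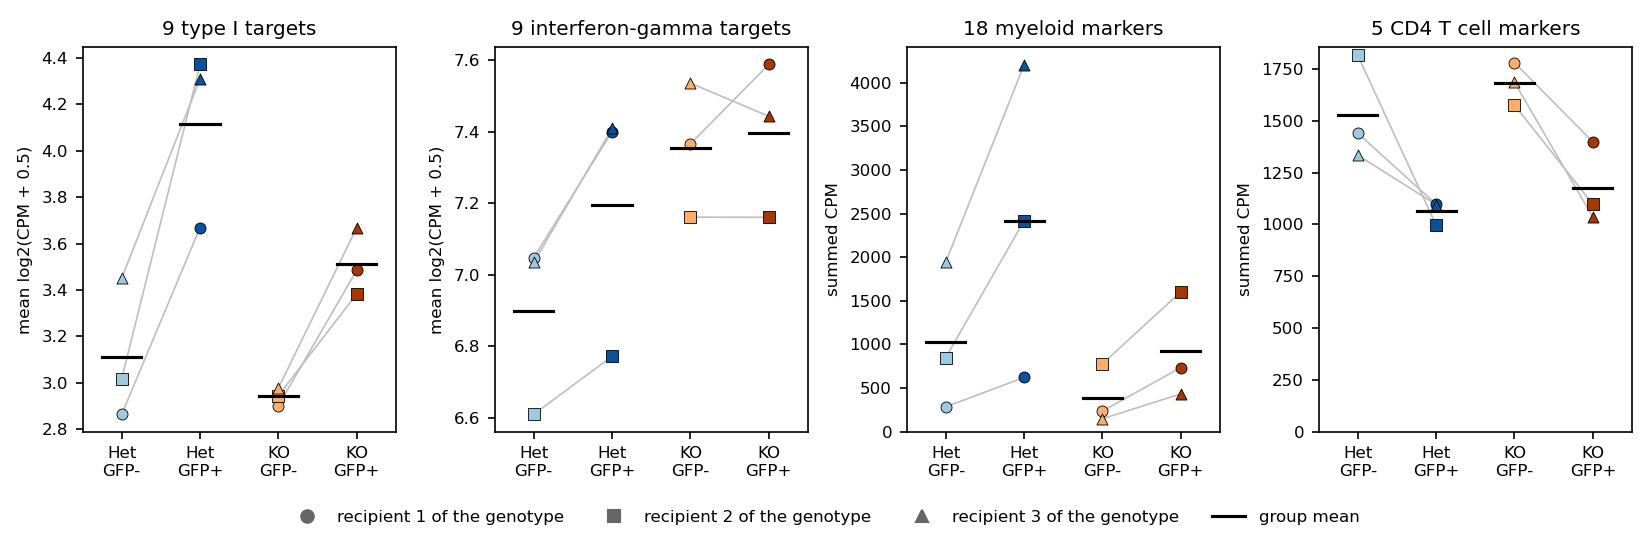
The 12 libraries by group, with lines joining the sorts of 1 recipient and black bars for group means (n = 3): mean log2(CPM + 0.5) of the 9 type I and the 9 interferon-gamma targets (axes not from 0), and summed CPM of 18 myeloid and 5 CD4 T cell markers (axes from 0). The type I mean and the myeloid sum were higher, and the CD4 T sum lower, in the GFP+ library of 6 of 6 recipients.

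The authors' deposited tables of their own DESeq2 comparisons, which list significant genes only, hold 12 members in Het GFP+ against Het GFP- (of 1406 genes), 2 in KO GFP+ against KO GFP- (of 388) and none in Het GFP+ against KO GFP+. In the authors' deposited table for Het, Oas2 had a log2 fold change of 2.02, Oasl2 of 1.80, Oas1a of 1.39 and Irf1 of 0.86, with the other 8 being Rsad2, Stat2, Dhx58, Tap1, Cxcl10, Isg15, Zbp1 and Psmb9. The authors' deposited table for KO lists Oas2 at 1.48 and Cxcl10 at 1.15. As these tables leave out the genes that were not significant, the share over all genes tested cannot be given beside these counts of members.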

How the data were processed

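Gene expression was measured by stranded, ribosomal-RNA-depleted total RNA sequencing of 12 libraries. The authors deposited whole-number counts per gene, not normalized, with exon coordinates and lengths per the file headers. Per the submitters' processing notes, TopHat2 2.0.13, featureCounts 1.5.0-p1, DESeq2 1.6.1 and the mm10 build were used; neither the strand setting nor the annotation release is given in the sources used here. The authors' deposited tables of DESeq2 results give log2 fold changes, score statistics and p-values with their adjustment. The labels name no molecular identifiers, so depth speaks to counting error only.

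From the counts, edgeR 4.0.16 in R 4.3.3 was run with TMM scaling, filterByExpr (minimum count 10, minimum total 15, 13238 genes kept), 1 mean per group over all 12 libraries, two-sided quasi-likelihood F-tests and Benjamini-Hochberg adjustment over the genes of each comparison, called at FDR 0.05. The code was tested on simulated data. CPM values are counts scaled by TMM library size. There were 6 comparisons. Samples were grouped by genotype and GFP sort from their labels, and same-numbered sorts of a genotype come from 1 recipient per the design text. Deviations of paired sorts from their group means had correlations of 0.547, 0.241 and 0.617 (Het) and 0.507, 0.506 and 0.263 (KO), and an alternative fit added the recipient as a block. Other alternatives were DESeq2 1.42.0, its size factors, no filter on low counts, an offset for GC content and exon length, only the groups compared, each library left out, KO recipient 1 left out with the block, and, added after the data were seen, both recipients numbered 2 left out. Whether the recipients' cells came from separate donors is not stated, so p-values measure the spread between these recipients.

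Members, pathway and marker lists were chosen with earlier results of these data known. Values per library are given for members called in any comparison, the 2 highest per length in each role, and per role the extremes of the blocked Het comparison. Other members named individually (the Ifit genes, Gbp2 and Rtp4) were chosen after their values were seen. Myeloid, erythroid, NK, B, CD8 T, CD4 T and plasmacytoid dendritic markers were summed as CPM. NK markers summed to 39.3 to 554 CPM, without a common direction (higher in GFP+ in 2 of 6 recipients). Gzma was the largest part of this sum, except in Het GFP+ replicate 3 and KO GFP+ replicate 2. There Tyrobp, also a myeloid marker, was the largest. Of 4 NK markers tested, Klrb1c was called lower in the averaged GFP contrast (8.18% of all genes were). Plasmacytoid dendritic markers, which include the member Bst2, summed to 42.3 to 130 CPM (higher in 5 of 6). Of these 5 plasmacytoid dendritic markers only Irf8 had a positive averaged GFP contrast. Their median log2 fold change was -0.62, and Ccr9 was called lower. One gene of the pathway list is not reported here by name. Symbols and promoters came from GENCODE M21 and RefSeq.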

Additional observations from a re-analysis of the deposited data

Results flagged for a closer look

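Rtp4 was the only member that was higher in GFP+ in 3 of 3 Het recipients and lower in 3 of 3 KO recipients. The KO differences were -0.29, -1.06 and -0.28 on the log2 scale, and the largest rests on 5 reads in KO GFP+ replicate 2. The share of all genes with this pattern was not counted. The difference of Rtp4 between the genotypes, Het minus KO, was 1.25 on the log2 scale (SE 0.45, edgeR FDR 1.00), and 1.28 (FDR 0.257) with the recipient as a block, so it did not pass the test in either fit.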

How the results depend on the processing

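Counts of members called depended on the fit. Shares of all genes called in the same fit are in brackets. In Het GFP+ against GFP-, where edgeR called 1 (3.45%), the count was 2 with DESeq2 size factors (3.51%) or the GC and length offset (4.01%). It was 4 with only the groups compared (3.44%), 5 with no filter on low counts (3.79%) and 13 with DESeq2 (5.02%). With the replicate block it was 22 (22.2%), with the block and the offset 23 (21.9%) and with the block without KO recipient 1 25 (29.5%). With both recipients numbered 2 left out it was 0 (0.238%), and 10 with the block added (8.6%). In KO, where edgeR called 0 (0.128%), the counts were 1 with no filter (0.849%) and 2 with DESeq2 (1.65%). They were 9 with the block (17.7%), 11 with block and offset (10 higher, 18.9%) and 12 with the block without KO recipient 1 (9 higher, 29.0%, about the members' share). With the block without both recipients numbered 2 the count was 4 (5.98%). DESeq2 called 1 in each of the 2 genotype comparisons (0.401% for GFP+ and 0.19% for GFP- cells). In the averaged contrast, 18 calls (18.1%) became 0 with both recipients numbered 2 left out (0.529%). They became 13 to 23 in the other fits that kept the 12 libraries or used the block (12.4% to 45.8%). Leaving out 1 library gave 0 to 9 calls in Het, 0 to 5 in KO, 3 to 17 in the averaged contrast and 0 in the remaining comparisons. The 9, 5 and 17 came without KO GFP+ replicate 1, where 7.03%, 12.6% and 33.3% of all genes were called. The cause of these changes was not tested, though fewer libraries enter each such fit.

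The pairing of sorts within recipients changed no call in the interaction. The type I median in KO moved from 0.39 to 0.25 with only the groups compared and to 0.27 with the replicate block without KO recipient 1, and ran from 0.031 to 0.65 with 1 library left out. The other leave-one-out medians of type I targets ran from 0.70 to 1.52 in Het, from 0.39 to 1.08 for Het GFP+ minus KO GFP+, from -0.094 to 0.19 for GFP- cells and from 0.50 to 0.79 in the averaged contrast. Those of interferon-gamma targets ran from 0.22 to 0.52, from -0.29 to 0.01, from -0.51 to -0.34 and from 0.06 to 0.20, and from -0.19 to 0.07 in KO.

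Irf7, Oas3 and Psmb8, all uncalled in the Het comparison, changed sign. Irf7 went from 0.00077 to -0.076 with no filter, -0.17 with the offset and -0.15 with offset and replicate block, and ran from -0.087 to 0.16 with 1 library left out. Oas3 went to -0.045 with the offset and -0.062 with offset and block, and ran from -0.25 (without Het GFP+ replicate 2) to 0.54. Psmb8 ran from -0.13 to 0.046 (without Het GFP- replicate 3), and went to 0.075 without both recipients numbered 2 and 0.082 with the block added. The causes were not tested. Of 928 refits of single genes, 688 kept direction and side of the threshold. Depth limits Oasl1, Ifit1 and Ifit3, with 1 to 3 reads in KO GFP+ replicate 2, and also Rtp4 with 5 and Oas1a with 7 reads there.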

Other observations

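Genes induced by interferons outside the 44 listed also went both ways in the averaged GFP contrast, with 7 of 29 higher and 3 lower by edgeR (9.91% and 8.18% of all genes). Nlrc5, the transactivator of MHC class I genes, measured 696, 371 and 382 CPM in the Het GFP- libraries, 1676, 924 and 683 in Het GFP+, 425, 630.3 and 499 in KO GFP- and 612, 1461 and 1111 in KO GFP+, with a contrast of 1.11 (SE 0.28, FDR 0.0227). Gbp8 (0.91, SE 0.25, FDR 0.0326), Oas1g (1.83, SE 0.57, FDR 0.0449), Adar (0.40, SE 0.12, FDR 0.0392), Trim25 (0.38, SE 0.11, FDR 0.0370) and Trafd1 (0.48, SE 0.12, FDR 0.0258) rose, as did the merged feature named Gbp2b. Shisa5 (-0.94, SE 0.19, FDR 0.0114), Ly6e (-0.88, SE 0.20, FDR 0.0177) and Slfn5 (-1.30, SE 0.31, FDR 0.0197) fell, although each is also listed as interferon-induced.

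Of the genes of MHC class I antigen processing outside the members, 1 of 8 was called higher and 1 lower, near the shares of all genes (9.91% and 8.18%). Tap2, the other subunit of the peptide transporter, rose (0.45, SE 0.14, FDR 0.0413). B2m, the light chain of MHC class I, fell. It measured 1148, 1750.4 and 1564 CPM in the Het GFP- libraries, 551, 381 and 1026 in Het GFP+, 2086, 1437 and 2024 in KO GFP- and 1644, 478 and 659 in KO GFP+, with a contrast of -1.09 (SE 0.32, FDR 0.0366). The transporter subunits Tap1 and Tap2 and the light chain thus went in opposite directions in the averaged contrast. In recipient KO 1, however, Tap2 was also lower in GFP+ (211 CPM in GFP-, 206 in GFP+).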
